A study of Mus musculus with 10 samples.

Results

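Transient distal regions are stretches of the mouse genome that carried a peak of H3K27me3 in the R100 and R500 lymphoma lines, carried none in the parental, R1000 and R4000 lines, and lay over 5 kb from the transcription start site (TSS) of every annotated gene. The peak lists of the 5 lines were merged where they overlapped by at least 1 bp, which gave 47264 regions, and each region was scored as present or absent in each line. Of all regions, 3095 (6.55%) were present in R100 and R500 and absent in the other 3 lines. Of the 21816 regions over 5 kb from every TSS, 968 (4.44%) had this pattern, and they are the members described here. Of the 25448 regions nearer to a TSS, 2127 (8.36%) had it. Each gene was given 1 TSS, the 5′ end of its annotated span. Some members therefore lie within 5 kb of the start of another annotated transcript. The members were thus chosen by peak presence in the 5 lists, so presence, absence and cover in R100 and R500 are a description and were not tested.

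The parental line is a B-cell lymphoma line of C57BL/6J mice that carries the Eμ-Myc transgene, in which the immunoglobulin heavy chain enhancer drives Myc in the B lineage, and is Cdkn2a-/-. R100, R500, R1000 and R4000 share this genotype and strain and are sub-clones of the parental line, each named for the dose in nM, 100 to 4000, of mafosfamide, an alkylating agent active in culture, at which it was isolated during a dose escalation of 34 days. H3K27me3 was mapped by ChIP-seq with an antibody to the mark, and the processed data are 1 list of peak positions per line, without a height, count or score. There is thus no spread between replicates, and whether a list pools the study's biological replicates is not given in the sources used here. The cells were grown without the drug for ChIP-seq.

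H3K27me3 is the trimethyl mark that Polycomb repressive complex 2 places on lysine 27 of histone H3. It is known from silent developmental genes and their CpG-rich regulatory DNA, where it can spread from sites of recruitment into broad domains. In B cells the genes of other lineages, such as those of neural and limb patterning, are typical carriers of the mark.

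The lists of R100 and R500 were the longest, and every comparison of presence rests on them. They held 25180 and 21888 distinct peaks over 5.04 and 4.53 Mb, against 10778 peaks over 1.63 Mb in the parental line, 9595 over 1.61 Mb in R1000 and 6820 over 1.07 Mb in R4000. In the lists of R100 and R500 every peak was entered 2 times, and in the other lists 1 time. Why these lists differ is not given in the sources used here, and any part of it in the pattern was not tested. The depth behind each list is unknown, and the part of list length in the number of members was not tested. When each list was cut to its 6820 widest peaks, 173 distal regions had the pattern. The median peak was 100 bp wide in every list. Members took 979 of the 9875 distal peaks of R100 (9.91%) and 990 of the 8834 of R500 (11.2%). No line had a peak in the body or promoter of Cdkn2a, which a list of peaks cannot tell from a deletion. Of the B-cell genes looked at, Cd79a, Ms4a1 and Blnk had no peak in the body or within 2 kb of the TSS in any line, whereas Cd79b and Ebf1 had peaks at the promoter in R100 and R500 and none in the parental line. These lists hold no expression, so the cell type itself could not be checked.

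The sequences under a few members are shown first. The first 5 are those with the most bases covered in both R100 and R500. The sixth is from the B-cell gene lists, where it ties with the Tcf3 member for the most shared bases. It is named for Cxcr4, the nearest protein-coding gene, and lies far outside that gene, at a distance given below. Each is the plus strand of mm9, 5′ to 3′, at the centre of the longest unbroken stretch covered in both lines, with CpG dinucleotides in capitals. In the Lphn1 and Nrxn2 members, whose shared bases are in several stretches, the sequence lies off the middle of the member.
Lphn1 region, chr8:86399726-86400025: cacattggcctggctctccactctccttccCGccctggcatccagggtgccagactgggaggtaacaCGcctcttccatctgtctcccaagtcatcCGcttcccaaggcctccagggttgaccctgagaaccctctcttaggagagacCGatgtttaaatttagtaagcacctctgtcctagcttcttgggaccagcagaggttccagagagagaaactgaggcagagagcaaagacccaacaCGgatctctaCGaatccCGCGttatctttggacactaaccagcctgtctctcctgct
Neurog2 region, chr3:127342801-127343100: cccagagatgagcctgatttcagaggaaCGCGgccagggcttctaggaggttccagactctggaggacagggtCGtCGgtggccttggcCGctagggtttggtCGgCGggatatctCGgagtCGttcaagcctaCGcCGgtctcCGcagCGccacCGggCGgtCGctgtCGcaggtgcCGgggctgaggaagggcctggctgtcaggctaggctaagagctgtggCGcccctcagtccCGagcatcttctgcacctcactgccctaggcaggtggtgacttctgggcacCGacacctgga
Sim1 region, chr10:50624201-50624500: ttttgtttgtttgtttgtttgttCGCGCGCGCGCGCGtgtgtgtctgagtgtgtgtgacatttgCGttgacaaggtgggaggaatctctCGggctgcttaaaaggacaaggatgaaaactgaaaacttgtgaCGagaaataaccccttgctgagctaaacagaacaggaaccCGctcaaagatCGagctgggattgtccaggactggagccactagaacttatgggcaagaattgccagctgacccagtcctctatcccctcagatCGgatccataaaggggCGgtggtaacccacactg
Nrxn2 region, chr19:6427426-6427725: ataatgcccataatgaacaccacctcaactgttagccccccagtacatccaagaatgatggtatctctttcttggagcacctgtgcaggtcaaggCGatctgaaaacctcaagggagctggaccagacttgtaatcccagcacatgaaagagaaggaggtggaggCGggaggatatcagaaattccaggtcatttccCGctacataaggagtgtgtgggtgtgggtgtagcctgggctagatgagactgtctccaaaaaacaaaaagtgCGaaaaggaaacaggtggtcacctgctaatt
Hmx1 region, chr5:35740751-35741050: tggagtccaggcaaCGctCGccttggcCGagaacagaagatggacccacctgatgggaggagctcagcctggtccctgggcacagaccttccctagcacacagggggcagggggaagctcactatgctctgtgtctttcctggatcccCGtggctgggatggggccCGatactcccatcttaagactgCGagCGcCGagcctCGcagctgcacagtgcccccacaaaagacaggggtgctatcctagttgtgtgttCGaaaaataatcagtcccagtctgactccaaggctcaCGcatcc
Cxcr4 region, chr1:130751551-130751700: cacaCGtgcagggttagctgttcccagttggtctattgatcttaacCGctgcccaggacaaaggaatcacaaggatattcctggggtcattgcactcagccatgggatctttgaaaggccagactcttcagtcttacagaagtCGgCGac
The Neurog2 sequence held the most CpG dinucleotides, 21 in 300 bp at 65% GC, and those of Sim1 and Hmx1 held 14 and 11. In the Sim1 sequence many of them stand in a single unbroken run of CG repeats near its start. The Lphn1 stretch held 8 and the Nrxn2 stretch 4. The Cxcr4 stretch, 150 bp long, also held 4. Every 50-mer of these stretches occurred once in the genome, so reads of 50 bp could be placed there without a second site.

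The member with the most bases in both lines lay on chromosome 8 (86399701-86400900), between genes. R100 covered 900 bp of it in 3 peaks and R500 covered all 1200 bp in 1 peak. The nearest TSS was that of Gm16994, 22500 bp away, and the nearest protein-coding gene was Lphn1, which encodes the adhesion receptor latrophilin, at 23104 bp. The nearest parental, R1000 and R4000 peaks were 17600, 21600 and 21050 bp away, all toward Lphn1. Around this member, the bases covered within 30 kb of its centre came to 500, 2050, 2050, 500 and 250 bp in the order parental, R100, R500, R1000 and R4000.

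The next member lay 6397 bp from the TSS of Neurog2, a proneural bHLH factor (chromosome 3, 127342451-127343450), with 900 bp covered in each of R100 and R500 and 800 bp in both. It sat in a dense field of peaks. Within 30 kb of its centre the parental line had 20 peaks, R100 18, R500 20, R1000 13 and R4000 11, which covered 3300, 6450, 8550, 2150 and 1750 bp. The numbers of parental, R100 and R500 peaks were therefore alike there, while R100 and R500 covered more bases. The member in Sim1, a bHLH-PAS factor of hypothalamic development (chromosome 10, 50624001-50624750), overlapped an exon and was covered over 600 bp in R100 and 750 bp in R500. A parental peak adjoined it with no gap. Within 30 kb the lines covered 1600, 6900, 7650, 2000 and 550 bp in the order parental, R100, R500, R1000 and R4000.

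The member in an intron of Nrxn2, a presynaptic adhesion gene (chromosome 19, 6427051-6427800), was covered over 750 bp in R100 and 550 bp in R500. The parental line had no peak within 30 kb and its nearest was 71050 bp away, although R1000 and R4000 peaks lay 500 and 850 bp from the member. R100 covered 3000 bp within 30 kb, R500 2700, R1000 200 and R4000 150. The member in an intron of Hmx1, a homeobox gene of eye and ear development (chromosome 5, 35740551-35741250), was covered over 500 bp in R100 and 700 bp in R500, with parental, R1000 and R4000 peaks 1750, 650 and 750 bp away.

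**Figure D1:**
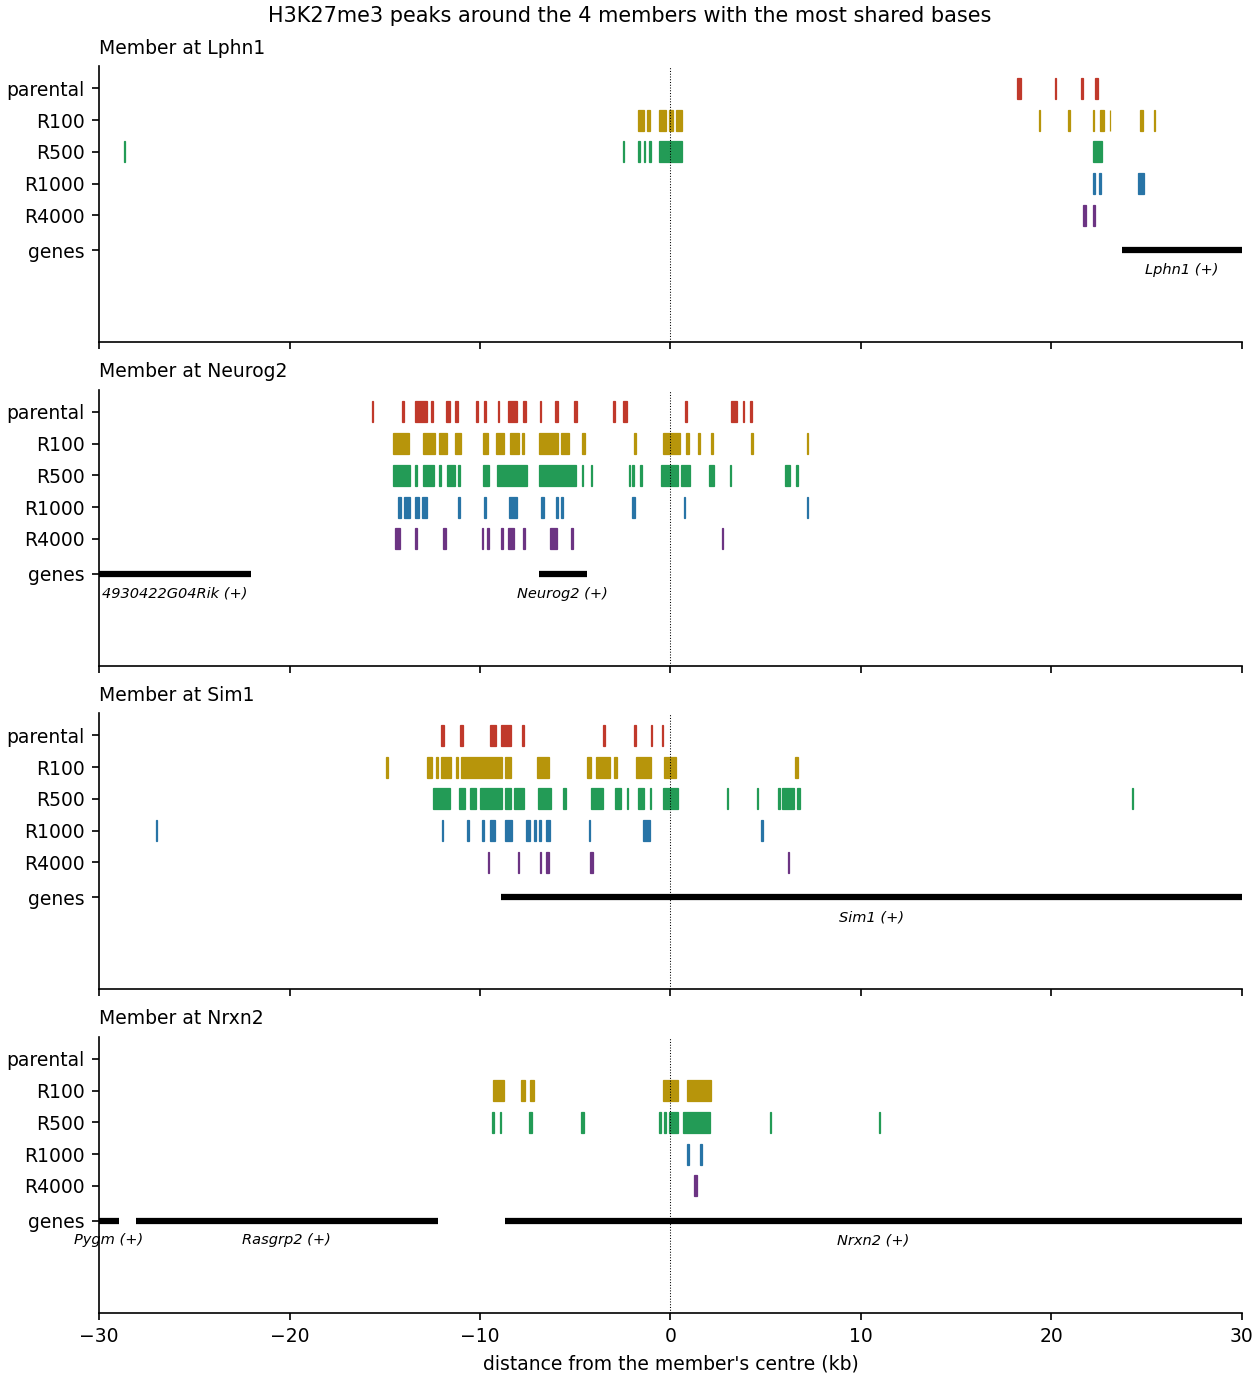
Peaks of the 5 lines as coloured blocks around the 4 members with the most shared bases, with protein-coding genes as black bars and distance from the member's centre in kb on the horizontal axis. At the dotted centre line only R100 and R500 have blocks. The Neurog2 and Sim1 members sit among peaks of all 5 lines, whereas the Nrxn2 map holds no parental peak.

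Of the other members among the 12 with the most shared bases, one at 24832 bp from Dbx1, a homeobox factor of spinal interneurons (chromosome 7, 56917051-56917800), was covered over 500 bp in R100 and 750 bp in R500. One at 27124 bp from Xrcc6bp1 (chromosome 10, 126365551-126366250) was covered over 500 and 700 bp. Neurod2, a bHLH factor of neuronal differentiation, had a member at 10212 bp (chromosome 11, 98180101-98180750) covered over 450 bp in R100 and 650 bp in R500. The members of Sall2, Scn8a, Pcgf5 and Pax2 completed the group. The exonic member of Sall2, a spalt zinc finger gene (chromosome 14, 52935101-52935750), and that of Scn8a, a neuronal sodium channel gene (chromosome 15, 100876351-100877050), were covered more widely in R100, over 650 and 700 bp against 450 bp each in R500. Those nearest to Pcgf5, a subunit of Polycomb repressive complex 1 (chromosome 19, 36423051-36423950), and Pax2, a paired-box gene of kidney development (chromosome 19, 44745251-44745900), were covered more widely in R500, over 850 and 600 bp against 500 bp each in R100.

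Most members were short. The median member spanned 200 bp (50 to 1200 bp), and 84 (8.68%) spanned at least 500 bp. R100 covered a median of 100 bp per member (50 to 900), R500 150 bp (50 to 1200), and the bases covered in both came to a median of 100 bp. A total of 479 members shared a single bin of 50 bp, the grid of the peak caller, and 51 shared at least 300 bp. Over all members R100 covered 167.6 kb, R500 170.0 kb, both lines 101.0 kb and either line 236.6 kb. Neither line was the wider on balance, with R100 covering more bases in 377 members (38.9%), R500 in 380 (39.3%) and both the same number in 211 (21.8%). The R100 and R500 intervals were identical in 115 members, and 937 members consisted of 1 peak of each line. The cover of R100 exceeded that of R500 by more than 2 times in 135 members, and the reverse held in 149. Across the 968 members the cover in R100 and R500 had a Pearson r of 0.41 and a Spearman rho of 0.27, a description of points that share the grid, the 2 lists and the peak caller.

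**Figure D2:**
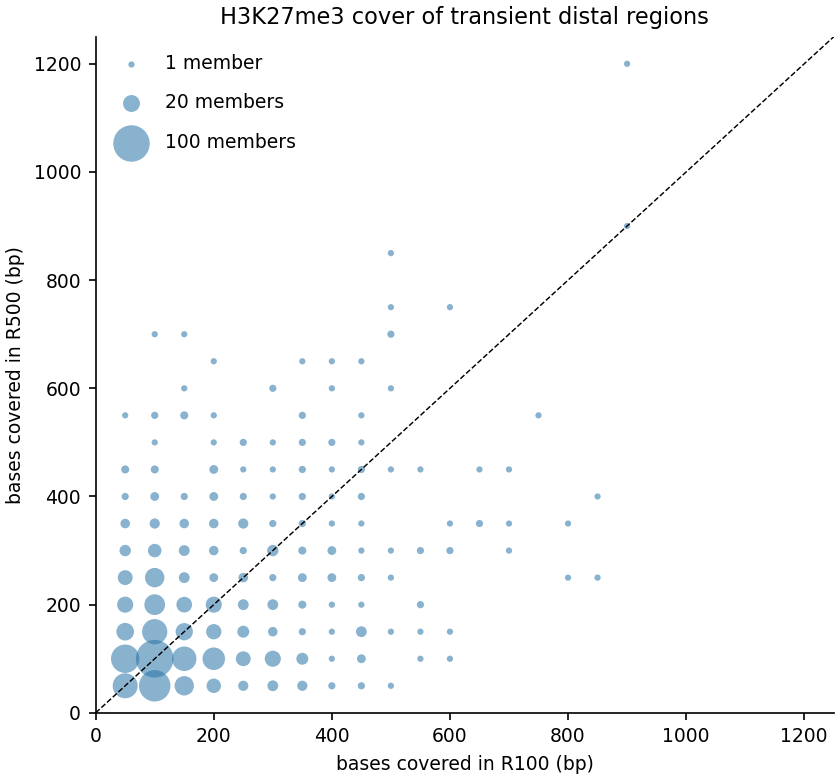
Bases covered in R100 (horizontal axis, bp) against bases covered in R500 (vertical axis, bp) in the 968 members, with the area of a point growing with the number of members at that pair of values and a dashed line of equal cover. Most members sit at 50 to 200 bp in each line and scatter evenly about the line. The Lphn1 member (900 and 1200 bp) and the Neurog2 member (900 and 900 bp) stand farthest out.

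Members lay a median of 13.8 kb from the nearest TSS, nearer than R100-only distal regions (16.4 kb) and all distal regions (16.5 kb), and farther than distal regions present in all 5 lines (12.1 kb). A total of 328 members (33.9%) lay at 5 to 10 kb, 271 (28%) at 10 to 20 kb, 218 (22.5%) at 20 to 50 kb, 109 (11.3%) at 50 to 100 kb and 42 (4.34%) beyond 100 kb. Just inside the limit were a member 5006 bp from Lhx5, a homeobox gene of forebrain development (chromosome 5, 120886901-120887550), with 200 bp covered in R100 and 650 bp in R500, and a member 5035 bp from Gm11003 (chromosome 11, 57656301-57656600), with 150 and 200 bp. Just outside it were transient regions 4985 bp from Gata2 (chromosome 6, 88138801-88138900), with 100 and 50 bp, and 4995 bp from Ndufv1 (chromosome 19, 4017801-4017900), with 50 and 100 bp.

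The member farthest from any TSS lay 344626 bp away on chromosome 6 (98853451-98853500), and Foxp1, a forkhead gene of B-cell development, was the nearest protein-coding gene at 363026 bp. It was a single bin of 50 bp in both lines. The next lay in an exon of Zbtb7c, 181134 bp from the nearest TSS (chromosome 18, 76219251-76220100), covered over 800 bp in R100 and 350 bp in R500, with a parental peak 150 bp away. The third lay in an exon of Otud7a, a deubiquitinase gene (chromosome 7, 70903551-70903700), 172743 bp from the nearest TSS, covered over 100 bp in R100 and 150 bp in R500.

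Members overlapped exons more often than distal regions at large. Of the 968, 144 overlapped an exon (14.9%, 95% Wilson interval 12.8 to 17.3), 321 lay in introns (33.2%) and 503 lay outside genes (52.0%). The exonic share was 8.09% of all distal regions (7.74 to 8.46), 8.66% of R100-only distal regions (8.03 to 9.34) and 24.1% of distal regions present in all 5 lines (19.7 to 29.2). These and the following intervals cover counting only and take regions as independent, although many neighbours share a locus. Members are wider than R100-only regions, whose median was 50 bp. Equal cover in R100, used here and below, does not match width, since a member also has an R500 peak by the rule. The class of 250 bp or more is open, so cover is not equal within it. R100 cover there reached 900 bp in members and 600 bp in R100-only regions. At equal cover in R100 the exonic shares were closer. They were 9.44% of members (5.98 to 14.6) against 6.94% of R100-only distal regions (6.16 to 7.81) at 50 bp in R100, and 22.4% (17.4 to 28.2) against 18.9% (14.5 to 24.3) at 250 bp or more, with intervals that overlapped. An exon more than 5 kb from every gene's start is an internal or last exon, or a further first exon of the same gene.

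The members were richer in GC and CpG than most distal regions. In a window of 300 bp at the centre of each region, the median GC content was 52.0% in members, 50.7% in R100-only distal regions, 49% in all distal regions, 53.0% in distal regions present in all 5 lines and 56.3% in transient regions near a TSS. The median ratio of observed to expected CpG was 0.30 in members, against 0.23, 0.22, 0.49 and 0.50 in these groups. A window with at least 50% GC and a ratio of at least 0.6 was called CpG island-like. The rule reads 1 window of 300 bp and not an annotated island. By this rule 125 members (12.9%, 10.9 to 15.2) were CpG island-like, against 5.13% of R100-only distal regions (4.64 to 5.67), 4.96% of all distal regions (4.67 to 5.25), 29.3% of distal regions present in all 5 lines (24.5 to 34.6) and 37.7% of transient regions near a TSS (35.7 to 39.8). At equal cover in R100, with width not matched, the members stayed above the R100-only regions. The shares were 10.2% (7.29 to 14.0) against 6.21% (5.30 to 7.26) at 100 bp. In the open class of 250 bp or more they were 21.5% (16.7 to 27.3) against 11.1% (7.75 to 15.7). At 50 bp the shares were 6.67% (3.85 to 11.3) and 3.48% (2.94 to 4.13), and at 150 to 200 bp 13.1% (9.41 to 17.9) and 7.66% (6.04 to 9.69), with intervals that overlapped. CpG island-like members overlapped exons in 44 of 125 cases (35.2%), and the other members in 100 of 843 (11.9%). Among the named members, by the window at the middle of each member and not by the sequences printed above, those of Lphn1, Neurog2, Sim1, Scn8a and Pcgf5 were CpG island-like, and those of Nrxn2, Hmx1, Dbx1, Neurod2 and Sall2 were not.

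**Figure D3:**
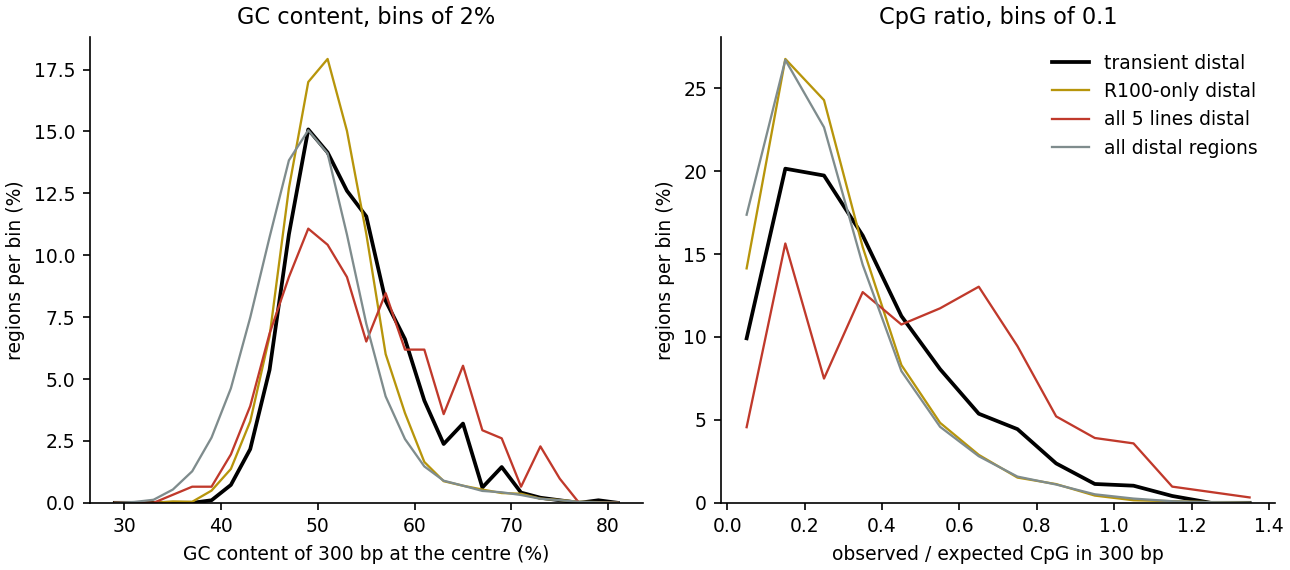
Share of regions per bin (vertical axis, %) by GC content (left, bins of 2%) and by the ratio of observed to expected CpG (right, bins of 0.1) in the 300 bp at each region's centre, for 4 groups of distal regions. The black line of the members runs to the right of the lines of R100-only and all distal regions, and distal regions present in all 5 lines reach farther right still, with a median CpG ratio of 0.49 against 0.30 in the members.

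Short motifs were looked for on both strands of the same windows. The E-box CAGGTG, which E2A proteins can bind, was in 26.3% of members (23.7 to 29.2) and in 23.1% of all distal regions (22.5 to 23.7). At equal GC content the shares were closer, with 15.7% against 14.6% below 45% GC, 24.5% against 24.2% from 45 to 55% and 31.6% against 30.5% from 55% upward. The wider motif CANNTG, which includes CAGGTG, was in 81.7% of both groups. The AP-1 motif TGANTCA was in 6.61% of members (5.21 to 8.35) and 8.83% of all distal regions (8.46 to 9.22), and within the class of 45 to 55% GC in 7.99% (6.08 to 10.4) and 8.97% (8.51 to 9.46). The ETS core GGAAGT was in 16.9% and 18.8%, a run of 4 GA units in 4.03% and 4.29%, and CCCTC, the core of the CTCF motif, in 70.2% and 60.7%. By GC class CCCTC was in 66.7% (53.0 to 78.0) of the 51 members below 45% GC and 43.0% (41.5 to 44.4) of all distal regions, in 66.2% (62.3 to 69.9) and 62.3% (61.5 to 63.1) from 45 to 55%, and in 78.5% (73.6 to 82.7) and 79.3% (77.9 to 80.7) from 55% upward. A match is a run of letters and not a bound site.

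Of 9 gene lists, that of homeobox genes took the most members. A region was given the protein-coding gene in whose body it lay and otherwise the protein-coding gene with the nearest TSS. By this rule 99 members (10.2%, 8.47 to 12.3) fell to 50 of 165 homeobox genes, against 4.35% of all distal regions (4.08 to 4.62), 3.51% of R100-only distal regions (3.11 to 3.97) and 15% of distal regions present in all 5 lines (11.4 to 19.4). Of these 99, 43 lay inside the gene. Pax2 took 8 of them, with 100 to 500 bp covered in R100 and 100 to 600 bp in R500. Cdx2, a caudal homeobox gene of gut development, Pou3f3, a POU gene of the forebrain, and Hoxd3 had 5 members each, and Pax6, the paired-box gene of eye development, had 4. Among the homeobox members with the most shared bases were an intronic member of Pax3, a gene of neural crest and muscle precursors (chromosome 1, 78186301-78186950), with 400 bp in R100 and 600 bp in R500, and a member near Isl2, a LIM homeobox gene of motor neurons (chromosome 9, 55394051-55394600), with 400 and 500 bp. The Pax3 member had a parental peak at 400 bp and the Isl2 member at 800 bp.

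Sox, Fox, Tbx, Zic and bHLH genes and their like, a list of developmental regulators without a homeobox, took 38 members (3.93%, 2.87 to 5.34) at 21 of 117 genes, against 2.41% of all distal regions (2.21 to 2.62) and 2.20% of R100-only distal regions (1.88 to 2.57). Neurog2 and Neurod2 led this group. Next came a member near Foxp4, a forkhead gene (chromosome 17, 48113001-48113700), with 700 bp in R100 and 350 bp in R500, and one near Foxi3, a forkhead gene of ectodermal appendages (chromosome 6, 70917251-70917650), with 250 and 400 bp. The heart and gut regulator Gata6 had 5 members, all over 100 kb from a TSS. Homeobox and these genes together took 137 members (14.2%, 12.1 to 16.5), against 6.75% of all distal regions (6.43 to 7.09), 10.4% of transient regions near a TSS (9.16 to 11.8) and 21.5% of distal regions present in all 5 lines (17.3 to 26.4).

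The share at these developmental regulators grew with the bases covered in both lines. It was 10.6% (8.19 to 13.7) among 479 members that shared 50 bp, 15.6% (12.2 to 19.7) among 359 that shared 100 to 150 bp and 23.1% (16.7 to 31) among 130 that shared 200 bp or more. The members and the R100-only distal regions were again set side by side at equal cover in R100. The members' R500 peak, required by the rule, and any greater width from it were not matched. Nor was R100 cover matched in the open class of 250 bp or more, where it reached 900 bp in members and 600 bp in R100-only regions. At 50 bp in R100 the share was 10% of 180 members (6.42 to 15.3) and 4.55% of 3673 R100-only distal regions (3.92 to 5.27). At 100 bp it was 12.4% of 315 members (9.19 to 16.5) and 6.38% of 2351 (5.46 to 7.44), and at 250 bp or more 20.6% of 228 (15.9 to 26.3) and 6.58% of 243 (4.09 to 10.4). In these 3 classes the intervals did not overlap. At 150 to 200 bp they did, with 13.5% of 245 members (9.75 to 18.3) and 8.76% of 822 (7.01 to 10.9).

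The other lists were nearer to the background. Genes of the Wnt, Fgf, Bmp, Notch and Hedgehog pathways took 22 members (2.27%, 1.51 to 3.42) against 2.01% of all distal regions, with introns of Notch3 (chromosome 17, 32298201-32298550; 250 and 350 bp in R100 and R500), Smad6 (chromosome 9, 63864001-63864300; 250 bp in each), Fgf9 (chromosome 14, 58694451-58694800; 350 and 200 bp) and Wnt3 (chromosome 11, 103670701-103671150; 450 and 150 bp) at its head. Ion channel genes took 23 members (2.38%, 1.59 to 3.54) against 1.61%. A second Scn8a member (chromosome 15, 100701651-100702000) had 350 bp in each line, an intronic member of the cold receptor gene Trpm8 (chromosome 1, 90183501-90183750) 250 bp in each, and an exonic member of the glutamate receptor gene Grin2d (chromosome 7, 53111951-53112400) 400 bp in R100 and 300 bp in R500. Of the cadherin and protocadherin genes, only Cdh23, a cadherin of hair-cell tip links, had members. It held 3 in its introns (0.31% of members, 0.11 to 0.91) against 0.43% of distal regions at this list.

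For genes of the B lineage, the intervals of the members' shares held the shares of all distal regions. Of 26 B-cell regulators, 3 had a member (0.31%, 0.11 to 0.91), against 0.55% of all distal regions, and in each case the gene was the nearest and not the host. Tcf3, which encodes E2A, had a member at 27309 bp (chromosome 10, 79923701-79924050) with 200 bp in R100 and 300 bp in R500. Id2, an inhibitor of E proteins, had a member at 5394 bp (chromosome 12, 25786351-25786900) with 100 and 550 bp, adjoined by a parental peak. The Foxp1 member was that farthest from a TSS. B-cell surface and signalling genes had 4 (0.41%, 0.16 to 1.06) against 0.26%. A pair of these, on chromosome 1 at 130751551-130751750 and 130756751-130756850, had Cxcr4, a chemokine receptor gene, as the nearest protein-coding gene at 262681 and 267881 bp. They had 150 and 50 bp in R100 and 200 and 100 bp in R500. That nearest to Cr2, a complement receptor gene, lay at 64992 bp from the gene's TSS.

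The list of Polycomb and H3K27 demethylase genes took 3 members (0.31%) against 0.30% of all distal regions. This list does not hold Pcgf5, which had a pair of members, that among the 12 above and one with 100 bp in each of R100 and R500. One at 5133 bp from Cbx8, a chromobox subunit of Polycomb repressive complex 1 (chromosome 11, 118896701-118897150), had 200 bp in R100 and 450 bp in R500. Another at 19568 bp from Cbx8 had 150 and 100 bp, and one in an intron of Kdm2b, a CXXC-domain demethylase that binds CpG islands, had 50 and 150 bp. Genes of other blood lineages had 6 (0.62%, 0.28 to 1.35) against 0.42%. They lay in exons of Runx3, a gene of T and NK cells (chromosome 4, 134708901-134709350; 450 and 250 bp in R100 and R500), of Lmo2, a LIM-only gene of early blood (chromosome 2, 103809851-103810050; 150 and 200 bp) and of Gata2, a regulator of blood stem cells, which had a pair, and near the T-cell genes Cd3e and Tcf7.

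**Figure D4:**
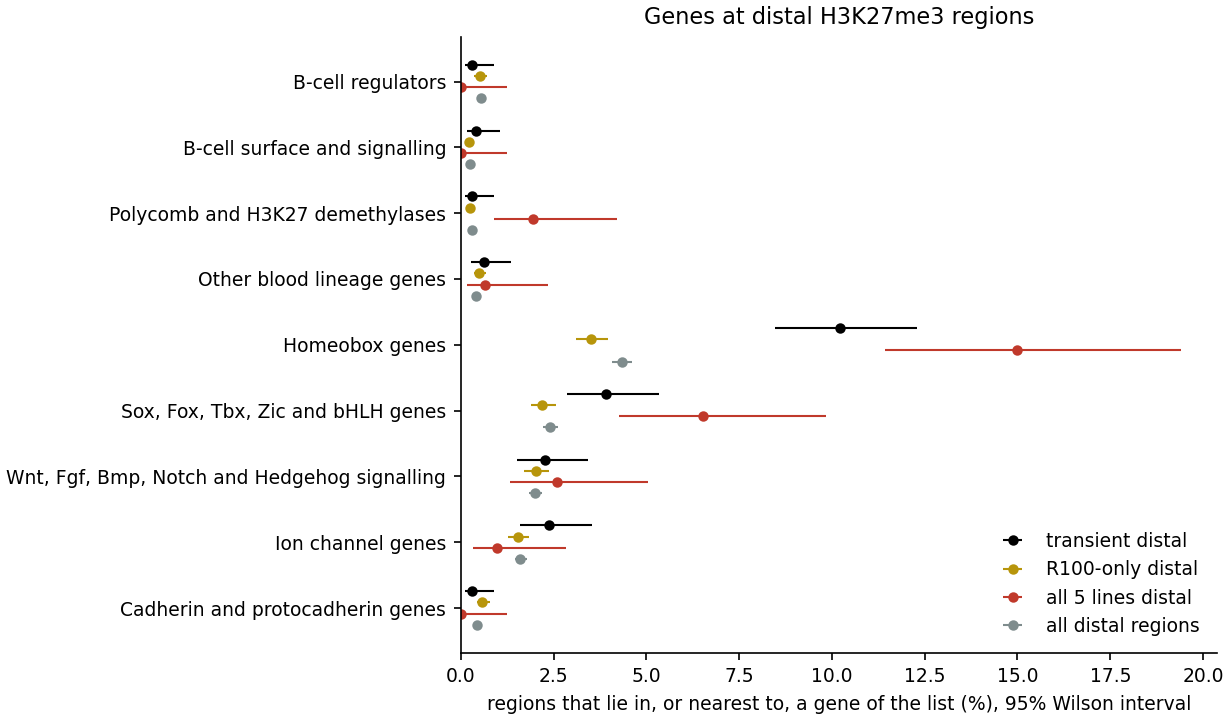
Share of distal regions that lie in, or are nearest to, a gene of each of 9 lists (horizontal axis, %), as points with 95% Wilson intervals, for members (black) and 3 other groups. Homeobox genes stand apart with 10.2% of members against 4.35% of all distal regions, and only the distal regions present in all 5 lines reach higher, at 15%.

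Part of the members lay close together. Chained where gaps were at most 10 kb, 373 members (38.5%) fell into 155 clusters of at least 2, and 42 clusters of at least 3 held 147 members. Other groups were not chained in this way, so this share has no background beside it. Peaks lie close together in general. An R100 peak outside the region lay within 10 kb of 90.0% of members, 66.7% of R100-only distal regions and 94.1% of distal regions present in all 5 lines. The largest cluster, 7 members over 24.7 kb of Ston2, an endocytic adaptor gene (chromosome 12, 92993151-93017800), held 10 parental, 19 R100, 22 R500, 9 R1000 and 3 R4000 peaks, which covered 1500, 4150, 3650, 1200 and 250 bp. A cluster of 6 members over 10.7 kb inside Nrxn2 (chromosome 19, 6496151-6506850) held 1, 13, 12, 1 and 1 peaks in the same order. Near Lifr and Egflam (chromosome 15, 7149701-7158000) 5 members lay over 8.3 kb with 3, 12, 9, 3 and 0 peaks, and in Hoxd3 5 lay over 6.1 kb (chromosome 2, 74571101-74577200) with 2, 8, 9, 3 and 0. These counts include the members' own peaks, which by the rule are of R100 and R500 alone.

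The protein-coding gene with the most members was Gm20388, with 12, but its annotated span of 4435 kb runs through many other genes. Antxr1, an anthrax toxin receptor gene, held 10 members in its introns, of 50 to 250 bp in R100 and 50 to 350 bp in R500, and its body held 31 parental, 72 R100, 45 R500, 12 R1000 and 9 R4000 peaks. Nrxn2 and Ston2 held 7 each. Sfi1, a centrin-binding gene, Gm5607, Hoxd3 and Skap1, a T-cell adaptor gene, held 5 each, and Ostm1 and Pax6 held 4. The Nrxn2 body had 2 parental peaks and 23 each in R100 and R500, then 5 in R1000 and 4 in R4000. In Sfi1, some 50-mers of a member were not unique in the genome, so its reads could be shared with copies. In all, 303 protein-coding genes held a member and 78 held at least 2. By windows of 100 kb, the densest were in Antxr1 (chromosome 6, 87100001-87200000) with 8 members, and in Gm5607 (chromosome 8, 12400001-12500000) and at Lifr and Egflam (chromosome 15, 7100001-7200000) with 7 each.

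Members were found on every autosome and on X. Chromosome 6 had 106 and chromosome 1 had 100, and per Mb of known sequence chromosome 19 had the most (0.88). Chromosome X had 6 and Y none of 3 distal regions. As a share of distal regions, members ran from 2.39% on chromosome 16 (1.43 to 3.96) to 5.92% on chromosome 15 (4.65 to 7.52), and chromosome 6 stood at 4.03% (3.34 to 4.85), close to the 4.44% of the genome.

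Although absent inside the members, peaks of the other lines were common beside them. A parental peak lay within 1 kb of 33.9% of members (31 to 36.9), within 5 kb of 60.0% (56.9 to 63.1) and within 10 kb of 69.4% (66.4 to 72.2). The shares within 10 kb were 44.2% of R100-only distal regions (43.0 to 45.3), 53.1% of all distal regions (52.5 to 53.8), 58.7% of transient regions near a TSS (56.6 to 60.8) and 84% of distal regions present in all 5 lines (79.5 to 87.7). At equal cover in R100, with width not matched, the members were also above the R100-only regions, with 62.2% (55 to 69) against 38.3% (36.7 to 39.8) at 50 bp and 67.3% (61.9 to 72.2) against 46.8% (44.8 to 48.8) at 100 bp. In the open class of 250 bp or more the intervals overlapped, with 71.9% (65.8 to 77.4) against 62.1% (55.9 to 68.0). R1000 and R4000 had a peak within 10 kb of 65.4% and 55.3% of members, and all 3 absent lines did so for 432 members (44.6%). The median distance to the nearest peak outside the member was 2.5 kb for the parental line, 0.55 for R100, 0.65 for R500, 2.9 for R1000 and 7.25 for R4000. For R100 and R500 that peak can belong to another member, which by the rule holds no peak of the other lines.

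R100 and R500 peaks covered more of the members' flanks than peaks of the other lines did. The same held around the other distal groups and over the whole genome. Around the members this is in part by the rule. The flanks include neighbouring members, which carry R100 and R500 peaks alone, and 373 members (38.5%) have another within 10 kb. The part of neighbouring members in the excess was not tested. In the 10 kb on each side, members had a mean of 504, 1420, 1380, 461 and 288 bp covered, in the order parental, R100, R500, R1000 and R4000. R100 covered more than the parental line in the flanks of 798 members (82.4%) and less in 82 (8.47%), and R500 covered more in 762 (78.7%). These counts were not made for other groups of regions. Parental peaks covered 2.52% of these flanks, R100 peaks 7.10% and R500 peaks 6.90%, against 0.0615%, 0.190% and 0.171% of the genome. The flanks of R100-only distal regions were less covered in each line, at 1.07%, 3.06% and 2.88%, as were those of all distal regions, at 1.61%, 3.88% and 3.84%. Those of distal regions present in all 5 lines were more covered, at 7.47%, 14.5% and 14.9%. Since the R100 and R500 lists cover about 3 times as many bases in all as the parental list, their excess in the flanks moves with list length, and its part was not tested.

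**Figure D5:**
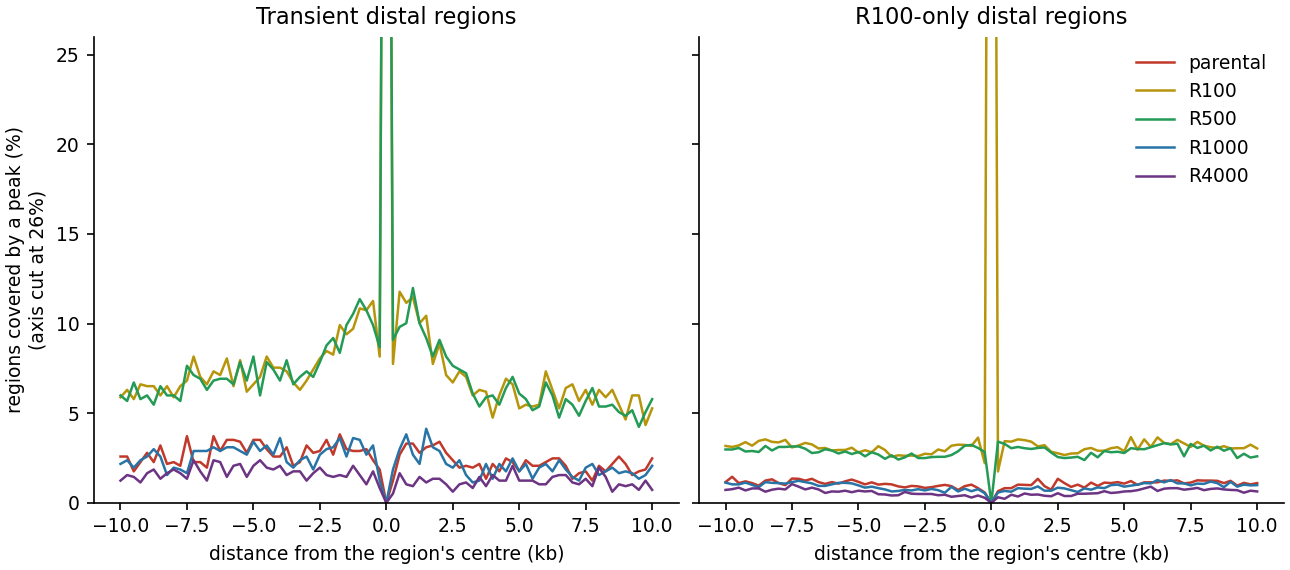
Share of regions covered by a peak of each line (vertical axis, %, cut at 26%) at steps of 250 bp from the region's centre (horizontal axis, kb), for members (left) and R100-only distal regions (right). Around members R100 and R500 reach about 11% at 1 kb and parental and R1000 about 3%, while beyond 1 kb from R100-only regions R100 and R500 stay near 3%. Peaks of neighbouring members are included, and these are of R100 and R500 alone.

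Some members touched the mark of the other lines and others lay far from it. A peak of an absent line adjoined 73 members (7.54%, 6.04 to 9.38) with no gap, as at Sim1 and Id2. At the other end, 235 members (24.3%, 21.7 to 27.1) had no parental, R1000 or R4000 peak within 5 kb, against 55.4% of R100-only distal regions (54.2 to 56.5) and 46.4% of all distal regions (45.7 to 47.0). For 35 members none lay within 100 kb. Of these 35, 13 were CpG island-like (37.1%, 23.2 to 53.7) and 8 overlapped an exon. The one with the most shared bases lay near Eif3f, a translation initiation factor gene (chromosome 7, 116094101-116094850), with 450 bp in R100 and 550 bp in R500 and the nearest parental peak 556 kb away. It was followed by an exonic member of Prickle1, a planar polarity gene (chromosome 15, 93349751-93350100), with 350 and 250 bp and no parental peak within 2132 kb.

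The promoters of the genes nearest to members carried the mark more often than promoters at large, in every line. Of 674 protein-coding genes nearest to a member, 35.5% had a parental peak within 2 kb of the TSS (31.9 to 39.1), 60.4% an R100 peak (56.6 to 64.0), 55.8% an R500 peak (52.0 to 59.5), 38.0% an R1000 peak (34.4 to 41.7) and 33.8% an R4000 peak (30.4 to 37.5). For all 22380 protein-coding genes the shares were 8.30, 28.2, 21.4, 12.6 and 11.1%. For the 5341 genes nearest to any distal region they were 20.4, 47.4, 39.9, 25.8 and 22.4%. Genes nearest to R100-only distal regions had 23.5, 51.4, 43.8, 29.3 and 24.8%. Those nearest to distal regions present in all 5 lines had higher shares than the members' genes, at 45.1, 66.7, 61.3, 46.1 and 46.1%. Pax6 had a promoter peak in all lines but R4000, and Hoxd3 and Nrxn2 had none in the parental line. Both had one in R100 and in R500, and none in R1000 or R4000.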

How the data were processed

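H3K27me3 was mapped by ChIP-seq in the parental, R100, R500, R1000 and R4000 lines, with 1 sample per line. The authors sequenced immunoprecipitated and input libraries in reads of 50 bp and called peaks with Poisson statistics over windows tiling the genome. The values the authors deposited are peak positions in bp, given by chromosome and both ends in steps of 50 bp and without a count or other measure of height. The submitters' processing notes name mm9 and Bowtie without a version. The methods state a p-value limit for enriched promoters and mention biological replicates, but the threshold of the deposited lists and whether they pool replicates are not given in the sources used here. The 5 RRBS samples were not analysed here. Some items of the gene lists are not reported here.

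Samples were grouped by their titles. Duplicate entries, 1 for every peak of R100 and R500, were dropped. Overlapping intervals (at least 1 bp) were merged, and distances were measured from the region's nearest edge to the 5′ end of each of 37310 genes of the GENCODE annotation of mm9. GC, CpG and motifs were read from 300 bp at each region's centre, and uniqueness from exact 50-mers of the genome. Computation used Python 3.11.15, numpy 2.4.6, numba 0.67.0, scipy 1.17.1, pysam 0.24.0 and matplotlib 3.10.9. Merging and distances were tested on simulated data, where 0 of 66 regions differed from a base-by-base count.

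The members, gene lists and named genes were chosen with earlier results of these data known. The regions named are the 12 with the most bases covered in both lines, the 10 genes with the most members, the 3 farthest from a TSS, those at the 5 kb limit, those at B-cell and Polycomb genes, up to 4 for each other list, and the 3 densest windows of 100 kb. Genes with several members on the lists, the clusters and the 2 members without neighbouring peaks were named after their values were seen. Sequences were to be shown only where at most 50% was repeat-masked, but the reference used here carries no repeat masking, and at least 50% unique 50-mers was asked instead. With 1 list per line no test was made, the depth is unknown, and 95% Wilson intervals cover counting only. The alternatives concerned the distance, the TSS set, merging, peak width, the rules of presence and absence, list length and chromosomes.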

Additional observations from a re-analysis of the deposited data

How the results depend on the processing

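The 7 results followed through 18 alternatives were the number of members, the share of transient regions that are distal, and the members' median width, share covered more widely in R100, share outside genes, median GC and share with a parental peak within 10 kb. The alternatives without chromosome 6 and with unique members only were chosen after seeing the data. The number of members was 968. It was 640 and 369 for distances over 10 and 20 kb, 418 for peaks at least 200 bp wide, 639 where both lines covered at least 50% of the region, 434 and 235 where no absent line had a peak within 1 or 5 kb, and 173 for lists of equal number. The other 11 alternatives gave 772 to 1421. The distal share of transient regions, 31.3%, was 45.9, 20.7 and 11.9% for distances of 2, 10 and 20 kb, 37.4% with protein-coding TSS, 25.2% with every transcript's TSS, 40.4 and 40.9% with intervals within 500 and 1000 bp merged, 28.7 and 24.7% for peaks at least 100 and 200 bp wide, 33.8 and 29.6% without absent lines within 1 and 5 kb, and 25.5% for lists of equal number. The median width, 200 bp, was 350 and 600 bp with intervals within 500 and 1000 bp merged, 250 and 500 bp for peaks at least 100 and 200 bp wide, 150 bp with at least 50% covered in both lines and 450 bp for lists of equal number. R100 covered more bases in 38.9% of members, in 44.3% for peaks at least 200 bp wide, in 34.3% with at least 50% covered in both lines and in 45.1% for lists of equal number. The share outside genes, 52.0%, was 47.9, 55.3 and 57.2% for distances of 2, 10 and 20 kb, 63.1% with every transcript's TSS, 56.1% with intervals within 1000 bp merged and 48.6% for lists of equal number. The share with a parental peak within 10 kb, 69.4%, was 74.4, 62.8 and 61.2% for the 3 distances, 53.1 and 41.8% with intervals within 500 and 1000 bp merged, and 60.5 and 47.1% for peaks at least 100 and 200 bp wide. It was 51.2 and 23.0% where no absent line had a peak within 1 and 5 kb, which follows from that rule. The median GC content stayed between 50.7 and 55.7%. No paired analysis was possible because each line has 1 peak list and no test was made. With unknown depth, absence from a list says only that no peak was called there.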
